A study of Mus musculus with 5 samples.

Results

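The cells described here carry the deposited label MOL2/MFOL, a name that joins a mature oligodendrocyte type (MOL2) with myelin-forming oligodendrocytes (MFOL). They were taken by that label alone, and they number 231 of 2853 cells. The study sorted oligodendrocyte lineage cells from the corpus callosum of healthy P60 mice carrying Emx1::Cre together with Sox10::Cre-LoxP-GFP-STOP-TdTom, on a mixed CBA and C57BL/6 background, and sequenced single cells. In this line cells whose ancestors expressed Emx1, a gene of the dorsal forebrain, are TdTom+, and the other Sox10 lineage cells are GFP+. Tissue of 2 mice was pooled and each colour gave 1 library, so no spread between animals can be had. All cells share the alleles and the age, and none was treated. Origin depends on Emx1-driven Cre, so a dorsal cell that escaped recombination would be counted as GFP+.

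Oligodendrocytes arise from progenitors (OPC), pass through committed and newly formed stages, build myelin as MFOL and end as several mature types. Klk6, a secreted serine protease, is the usual marker of MOL2, a type known to be frequent in spinal cord white matter. Opalin, a membrane glycoprotein of myelinating cells, and Tspan2, a tetraspanin, are high in MFOL. Immediate early genes such as Fos are transcribed within minutes of many stimuli, and chaperone genes such as Hspa1a respond to protein damage.

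Values are unique molecular identifiers (UMIs) summed over the cells of a label and given as counts per 1e6 of that sum (CPM). A difference is the log2 ratio after 1 CPM was added to each side, which understates the change of low genes. Intervals are exact 95% intervals and cover counting error only. The labels came from the expression of these same cells and there is 1 library per origin, so no test was run and every difference is a description. A gene was counted as higher or lower when it passed 1.5-fold with at least 50 CPM on either side.

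Depth did not separate MOL2/MFOL from MFOL1, MOL2a and MOL2b, but other labels named below were shallower. Library totals were 7129294 UMIs (TdTom+) and 3584940 UMIs (GFP+), with medians of 3340 and 3307 UMIs per cell, and 1 cell barcode occurred in both libraries, in no MOL2/MFOL cell. The MOL2/MFOL cells had a median of 3977 UMIs, near the 3745 of MFOL1, the 3976.5 of MOL2a and the 4086 of MOL2b. Medians were 3106 UMIs in MOL6a, 2897.5 in MOL4-5/6 and 3043 in MOL2/4. Their median mitochondrial share was 1.10% of UMIs, against 1.37% in MFOL1, 1.12% in MOL2a and 1.28% in MOL2b. In the merged labels that the authors also deposited, all 231 cells were MOL2, where they made up 22.7% of 1019 cells.

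MOL2/MFOL cells were found in both libraries. They were 170 of 1901 TdTom+ cells, or 8.94% (7.70 to 10.3%), and 61 of 952 GFP+ cells, or 6.41% (4.94 to 8.16%). The 2 intervals overlap, but overlap does not measure the difference between the shares. TdTom+ cells made up 73.6% of the label (67.4 to 79.2%) and 66.6% of all cells, a value below that interval. With 1 library per origin the origin and the library cannot be told apart.

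The markers of MOL2 were high in these cells and those of MFOL were not. All 6 MOL2 markers (Klk6, Anxa5, Hopx, Spock3, S100b and Mgst3) were above the level of all other cells together, in each library. With libraries pooled 5 of them passed 1.5-fold, all but S100b. None of the 8 MFOL markers was above the level of all other cells together with the libraries pooled, and 1 was in the GFP+ library alone. Summed over the list, MOL2 markers stood at 1861 CPM in TdTom+ and 2763 CPM in GFP+ MOL2/MFOL cells, against 132 and 104 CPM in MFOL1. MOL2a cells had 2872 and 3580 CPM and MOL2b cells 2196 and 3576 CPM. Pooled over libraries, MOL2/MFOL had 2104 CPM of this list and MOL2/4, the highest label, 3718 CPM. The label of committed and newly formed cells (COP/NFOL) had 2227 CPM and MOL1 had 1812 CPM. The summed MFOL markers were at 1274 CPM in TdTom+ and 1070 CPM in GFP+ MOL2/MFOL cells, against 4619 and 4487 CPM in MFOL1. In MOL2a they were at 867 and 983 CPM and in MOL2b at 997 and 905 CPM. In each library the MOL2/MFOL sums of both lists thus lay between MFOL1 and the MOL2a and MOL2b labels, and much nearer to the latter. By gene, with libraries pooled, 2 of the 6 MOL2 markers lay between. These were S100b, at 941 CPM against 1765 CPM in MOL2a and MOL2b, and Hopx, at 146 against 235 CPM. The other 4 were above MOL2a and MOL2b by less than 1.5-fold, such as Anxa5 at 160 against 125 CPM. With libraries pooled, MOL2/MFOL had 1219 CPM of the MFOL list and MFOL2, the other MFOL label, 2280 CPM. Labels with no MFOL in their name also had more, such as MOL6a with 2918 CPM and MOL4-5/6 with 2495 CPM. The MFOL part of the name was not borne out against the other cells, so the cells are called by their deposited label and no stage is read from it.

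Klk6 stood at 273 CPM in TdTom+ and 645 CPM in GFP+ MOL2/MFOL cells, and at 18.2 and 6.93 CPM in MFOL1. It was at 230 and 444 CPM in MOL2a and at 179 and 447 CPM in MOL2b. The GFP+ level was thus above the TdTom+ level in these 3 MOL2 labels. Between MOL2/MFOL and MFOL1 the log2 difference of Klk6 was 4.61 (4.02 to 5.47), and against MOL2a and MOL2b together it was 0.37 (0.19 to 0.54). After every cell was thinned to 2400 UMIs, 51 of 229 MOL2/MFOL cells held a Klk6 UMI, or 22.3% (17.1 to 28.2%), against 26.8% before thinning. The thinned share was 1.54% in MFOL1, 29.7% in MOL2a and 31.2% in MOL2b. No Klk6 UMI was found in 71 OPC, which allows a share of cells with a UMI of up to 4.23% by the rule of 3 counts and 5.06% by the exact interval. OPC are shallower, with a median of 2895 UMIs. One MOL2/MFOL cell held 15.4% of all Klk6 UMIs of the label.

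S100b, a calcium-binding protein, was at 862 CPM (TdTom+) and 1156 CPM (GFP+) in MOL2/MFOL cells. MFOL1 had 63.1 and 46.2 CPM, and MOL2a and MOL2b together had 1481 and 2257 CPM. The MOL2/MFOL cells lay between both sides in each library, with a log2 difference of 4.01 from MFOL1 and -0.91 from MOL2a and MOL2b. Hopx, a homeodomain protein without DNA binding, was likewise between, at 134 and 177 CPM, with log2 differences of 5.13 and -0.69. Spock3, an extracellular proteoglycan, had 350 and 367 CPM and differed from MOL2a and MOL2b by 0.06 (-0.11 to 0.24).

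Opalin was at 507 CPM in TdTom+ and 403 CPM in GFP+ MOL2/MFOL cells. MFOL1 had 1790 and 1844 CPM, and MOL2a had 213 and 248 CPM. Its level was 0.96 higher on the log2 scale than in MOL2a and MOL2b (0.80 to 1.14) and was lower than in MFOL1, at -1.91. Tspan2 was at 661 and 558 CPM, against 2364 and 2315 CPM in MFOL1, and it differed from MOL2a and MOL2b by 0.11 (-0.02 to 0.24). Prom1, a pentaspan membrane glycoprotein and another MFOL marker, had no UMI in either library of the label.

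**Figure D1:**
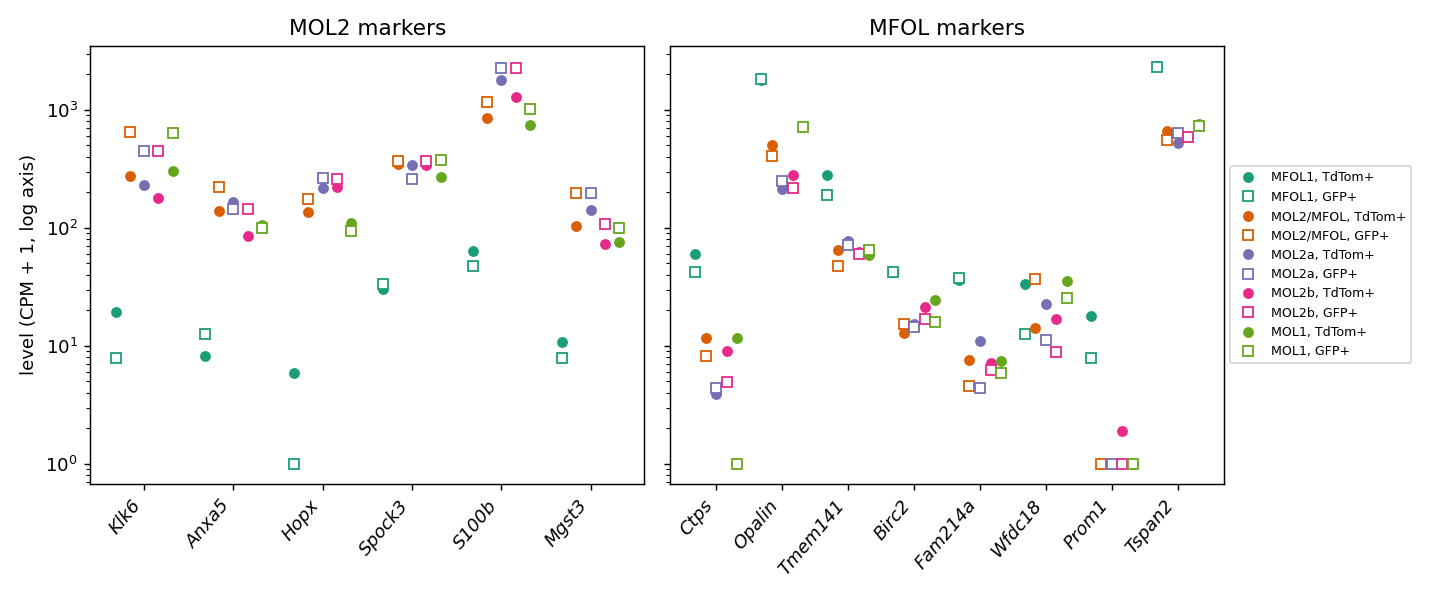
Levels of the 6 MOL2 markers (left) and the 8 MFOL markers (right) in CPM + 1 on a log axis, by label (colour) and library (filled circle TdTom+, open square GFP+). MOL2/MFOL (orange) sits with MOL2a, MOL2b and MOL1 for the MOL2 markers, with Klk6 at 273 and 645 CPM, and far below MFOL1 for Opalin and Tspan2.

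Among markers of other cell types, those of microglia, neurons, endothelium and pericytes were at or near 0 in MOL2/MFOL cells, and those of astrocytes were not. Microglia, neuron and endothelial lists summed to 1 UMI each, at 0.971 CPM, and the 1 pericyte gene measured had none. The OPC list had 20 UMIs, or 12.0 CPM in TdTom+ and 39.6 CPM in GFP+ cells, against 10841 and 10623 CPM in OPC, with 2 of its 6 genes at 0. The astrocyte list had 173 and 180 CPM with 3 of its 7 genes at 0, against 99.5 and 129 CPM in MFOL1, 187 and 176 CPM in MOL2a and 390 and 289 CPM in MOL2b. Most of it was Slc1a3, a glutamate transporter, at 134 and 130 CPM, a log2 difference of 1.24 from MFOL1. Of the ependymal list 1 gene was measured, Foxj1, at 23.9 and 28.8 CPM, against 109 and 83.2 CPM in MFOL1. The red blood cell list had 2 genes measured, 1 of them at 0, and stood at 9.31 and 21.6 CPM, against 9.71 and 9.24 CPM.

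Against MFOL1, MOL2/MFOL cells had many genes higher and fewer lower. Of 3280 genes, 687 (20.9%) were higher and 399 (12.2%) were lower, and 511 and 265 of them passed the fold in each library taken alone. Without the level limit the split turned, to 2197 higher and 2359 lower. Counts of list members cover those over the limit, and a member that passed it only through the side where it is high had to differ. All 6 MOL2 markers were among the higher genes and 4 of 4 MFOL markers over the level limit were among the lower. Hopx, Klk6, Anxa5, Mgst3 and Spock3 passed the limit only through MOL2/MFOL, and Ctps only through MFOL1, so the limit fixed their direction. Of the MOL2 markers S100b alone was over it on both sides, at 57.3 CPM in MFOL1. The median over all genes was 0.10 on the log2 scale. It was 4.03 over the MOL2 list and -1.98 over the MFOL list, and both list medians include the genes whose direction the limit fixed.

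After Hopx and Klk6, the genes furthest above MFOL1 were Pmp22, a peripheral myelin protein, and Enpp6, a choline phosphodiesterase that marks newly formed oligodendrocytes. Pmp22 was at 431 and 483 CPM in the TdTom+ and GFP+ libraries of MOL2/MFOL, against 21.8 and 20.8 CPM. Enpp6 was at 181 and 173 CPM, against 9.71 and 6.93 CPM, and it was also at 147 CPM in MOL2a and 143 CPM in MOL2b. In the list of committed and newly formed cells (COP/NFOL) 2 of 10 genes were over the limit against MFOL1, Enpp6 higher and Fyn lower, beside 20.9% and 12.2% of all genes. Enpp6 passed the limit only through MOL2/MFOL. Against all other cells 4 of the 10 were over it, with Enpp6 higher and Gpr17, Fyn and Tcf7l2 lower, beside 7.66% and 4.41% of all genes. Plin3, a lipid droplet coat protein, Cdkn1c, an inhibitor of cyclin-dependent kinases, Uchl1, a ubiquitin hydrolase, and Mgst3, a microsomal glutathione transferase, followed with log2 differences of 4.04, 3.82, 3.77 and 3.74. For each of these genes both MOL2/MFOL libraries were above both MFOL1 libraries, but going one way in both libraries was a condition of being named.

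At the other end were genes that MOL2/MFOL cells nearly lacked. Synpr, a synaptic vesicle protein, had 1 UMI in the label against 63.7 CPM in MFOL1, a log2 difference of -5.04 with an interval from -11.36 to -3.51. Gfra1, a receptor for glial cell line-derived growth factor, had 3 UMIs, at 2.91 CPM against 70.0 CPM (-4.18, -6.89 to -2.99). Kirrel3, a cell adhesion protein, also had 3 UMIs, against 67.6 CPM (-4.13, -6.84 to -2.94). Epas1, a hypoxia-inducible transcription factor, stood at 9.31 and 10.8 CPM in the TdTom+ and GFP+ cells, against 104 and 113 CPM. Parvb, with 3 UMIs, stood at -4.24 (-6.95 to -3.06), and Rasal1, Thbs3, Slc9a3r2, Prickle1 and Pdxk completed the 10 lowest, from -3.89 to -3.26.

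Among the lists, set against the 20.9% of all genes that were higher and the 12.2% lower, cytoskeletal genes had many higher than in MFOL1. Of 14 over the limit, 8 were higher and 2 lower, with a median of 0.78. Tuba1a, an alpha-tubulin, had 2147 and 2298 CPM in TdTom+ and GFP+ MOL2/MFOL cells, against 534 and 571 CPM. Tubb3, a beta-tubulin, differed by 2.80 and passed the limit only through MOL2/MFOL. Mapt, the microtubule protein tau, and Fyn, a kinase, were the lower pair, at -0.59 each, and Fyn was higher in the GFP+ library and its interval (-1.25 to 0.02) held 0. In the glutathione list 4 of 8 were higher and 1 lower, and of the higher ones Mgst3 and Gstm1 passed the limit only through MOL2/MFOL. Of 14 structural myelin genes none was higher and 3 (Opalin, Tspan2 and Mal) were lower. Mbp, which encodes myelin basic protein, differed by -0.01 (-0.04 to 0.03). Of 80 ribosomal protein genes 2 were higher, and of 73 respiratory chain and ATP synthase genes 14 were higher, a share near that of all genes, and none lower. The MOL5/6 list went both ways, with 4 genes higher than in MFOL1, 3 lower (Ptgds, Il33 and Jph4) and a median of -0.18. Trf, which encodes transferrin, and Apod, a lipid-binding apolipoprotein, differed by 1.57 and 2.46, and Ptgds, a prostaglandin synthase typical of MOL5/6, by -2.56. The MFOL1 cells had 11203 and 13310 CPM of Ptgds, the MOL2/MFOL cells 2139 and 1697 CPM and the OPC 406 and 408 CPM. Ptgds was found in 56.3% of thinned OPC, against 75.1% of MOL2/MFOL cells, so its UMIs were widespread in a type with low levels.

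Against MOL2a and MOL2b fewer genes passed the fold, and over the level limit they were mostly upward. Of 3183 genes, 346 (10.9%) were higher and 94 (2.95%) were lower, with a median of -0.01, and 238 and 40 of them passed in each library alone. The shallower GFP+ library by itself gave 594 higher and 324 lower. Without the level limit the direction turned, with 1208 higher and 1585 lower. Levels in MOL2/MFOL and in these labels correlated across genes with r = 0.950, against 0.843 for MFOL1. Genes are not independent replicates, and both sides share the libraries. MOL2a was the closer of the pair, with 241 genes higher and 62 lower of 3141, against 459 and 164 of 3247 for MOL2b.

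**Figure D2:**
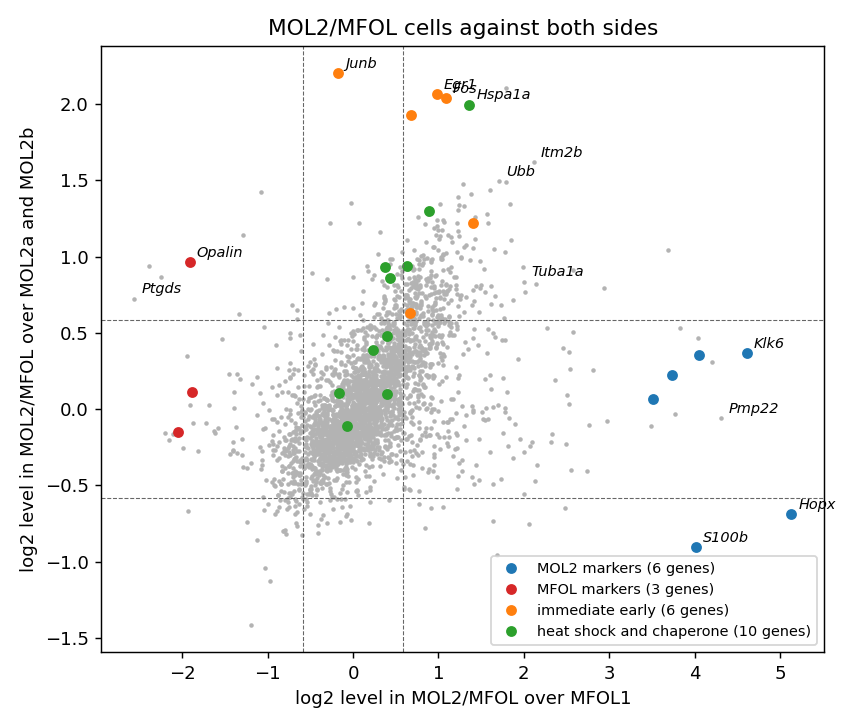
Log2 level of MOL2/MFOL over MFOL1 (horizontal axis) against log2 level over MOL2a and MOL2b (vertical axis), 1 point per gene that passed the level limit in both comparisons, with dashed lines at 1.5-fold. The 6 MOL2 markers lie far to the right, near or below 0 on the vertical axis, and Junb, Egr1, Fos and Hspa1a lie at the top. The axes share the MOL2/MFOL cells, so the slope of the cloud is not a result.

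The 10 genes highest over MOL2a and MOL2b held 4 immediate early genes and the chaperone gene Hspa1a. Of 16 immediate early genes listed, 6 were over the limit, of which Junb, Egr1 and Dusp1 passed it only through MOL2/MFOL, where they were high. Fos, Jun and Jund were over it on both sides, with log2 differences of 2.04, 1.22 and 0.63. Junb, a subunit of the AP-1 transcription factor, was at 105 and 108 CPM in TdTom+ and GFP+ MOL2/MFOL cells, against 23.0 and 20.9 CPM. Fos, its partner in AP-1, was at 402 and 450 CPM, against 98.8 and 103 CPM, a log2 difference of 2.04 (1.83 to 2.27). Egr1, a zinc finger transcription factor, and Dusp1, a phosphatase that inactivates MAP kinases, differed by 2.06 and 1.93. For these 4 genes both MOL2/MFOL libraries lay above both MOL2 libraries, but only genes that went one way in both libraries were named.

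The same genes were not at their highest in MOL2/MFOL cells. MOL1 cells had 2028 and 2337 CPM of Fos and 693 and 677 CPM of Junb. MFOL1 cells had 182 and 220 CPM of Fos and 91.0 and 173 CPM of Junb. Against MFOL1, 5 of the 6 genes over the limit were higher (Jun, Fos, Egr1, Dusp1 and Jund), with a share of 20.9% over all genes. Of these, Dusp1 passed the limit only through MOL2/MFOL. Junb, the exception, differed by -0.17 (-0.54 to 0.19), upward in TdTom+ and downward in GFP+. Summed, the immediate early list was at 3889 CPM in TdTom+ and 3303 CPM in GFP+ MOL2/MFOL cells. It was at 2036 and 2295 CPM in MFOL1, at 2272 and 1844 CPM in MOL2a, at 1883 and 1525 CPM in MOL2b, and at 10503 and 10125 CPM in MOL1. Against all other cells Egr1 and Jun of 7 passed the fold upward, beside 7.66% of all genes.

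Hspa1a, an inducible chaperone of the 70 kDa family, was at 306 CPM in TdTom+ and 155 CPM in GFP+ MOL2/MFOL cells. MOL2a and MOL2b together had 60.9 and 74.1 CPM, and the log2 difference was 2.00 (1.74 to 2.29). MOL2a alone had 163 CPM in its GFP+ cells, so that in that library the label did not exceed MOL2a. Against the 10.9% of all genes that were higher and 2.95% lower, 5 of 10 genes of the chaperone list were higher (Hspa1a, Dnajb1, Hsp90ab1, Hsp90aa1 and Hspd1) and none lower, and Dnajb1 passed the limit only through MOL2/MFOL. Cryab, a small heat shock protein, was at 5266 and 5104 CPM, against 4820 and 4376 CPM in MOL2b.

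**Figure D3:**
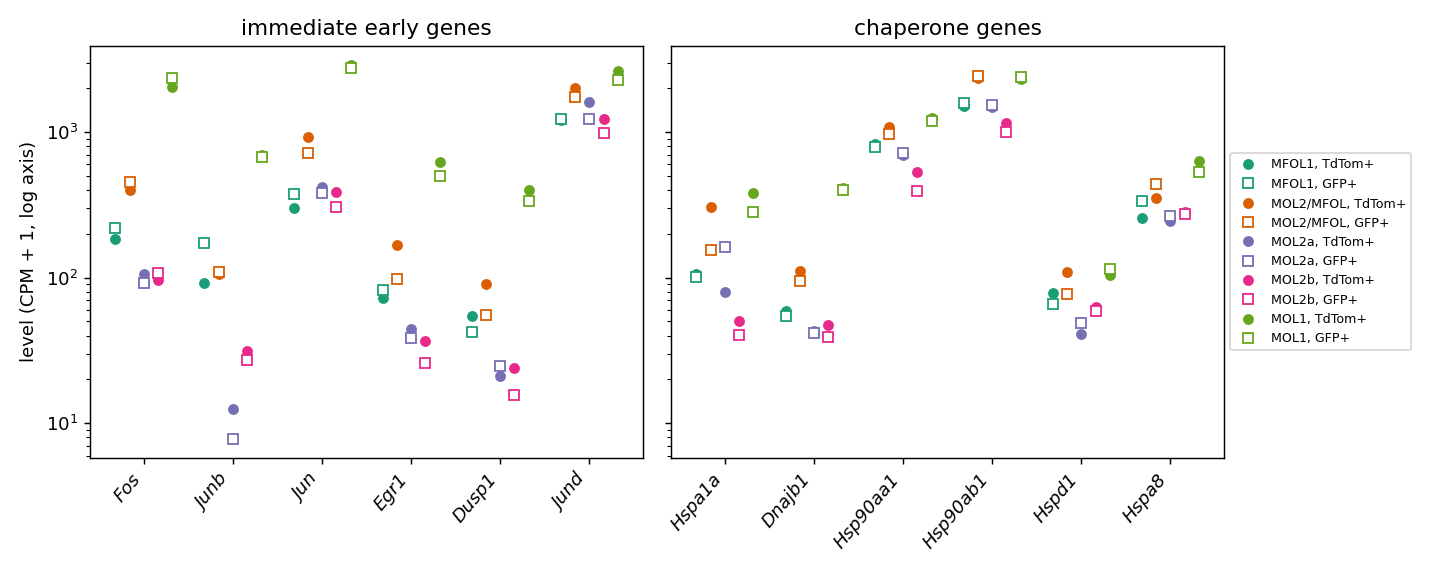
Levels of 6 immediate early genes (left) and 6 chaperone genes (right) in CPM + 1 on a log axis, by label (colour) and library (filled circle TdTom+, open square GFP+). MOL2/MFOL (orange) lies above MOL2a and MOL2b for the immediate early genes and below MOL1 (light green), with Fos at 402 and 450 CPM against 2028 and 2337 CPM in MOL1.

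The difference was also seen cell by cell. In cells thinned to 2400 UMIs, the immediate early list gave a median of 8 UMIs per TdTom+ MOL2/MFOL cell and 7 per GFP+ cell, with at least 1 UMI in every cell and quartiles of 5 and 13.25 in TdTom+ and of 4 and 12 in GFP+. MOL2a cells had medians of 5 and 4, MOL2b cells 4 and 3, and MOL1 cells 23 and 22. The chaperone list gave medians of 24 and 23 UMIs, against 20 in both libraries of MOL2a and 18 and 16 in MOL2b. It was 22 in both libraries of MFOL1 and 27 in both of MOL1. Pooled, the list stood at 10010 CPM in MOL2/MFOL and higher in MOL6a (12057 CPM), MOL1 (11310 CPM) and MOL4-5/6 (10138 CPM). A Fos UMI was found in 39.3% of thinned MOL2/MFOL cells (32.9 to 46.0%), 14.9% of MOL2a, 12.2% of MOL2b and 91.7% of MOL1. OPC, which also transcribe Fos, had one in 35.2%.

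The promoters of Fos, Dusp1 and Hspa1a are shown because these genes were among the 10 highest over MOL2a and MOL2b and held a match to a motif searched for. The promoter of Junb, also among the 10, held no TGACGT in this window and is not shown, and that of Egr1 was not analysed here. Each is the 250 bases before the RefSeq transcription start (GRCm38.p6), 5′ to 3′ on the strand of the gene. Capitals mark TGACGT in either orientation, the core of the cyclic AMP response element, in Fos and Dusp1, and GAANNTTC, a part of the heat shock element, in Hspa1a.
Fos, chr12:85473640-85473889, plus strand: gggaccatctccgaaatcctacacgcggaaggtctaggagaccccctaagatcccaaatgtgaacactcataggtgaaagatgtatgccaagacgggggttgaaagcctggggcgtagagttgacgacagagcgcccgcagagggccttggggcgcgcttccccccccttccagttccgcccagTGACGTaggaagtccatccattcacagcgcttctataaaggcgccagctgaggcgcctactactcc
Dusp1, chr17:26508473-26508722, minus strand: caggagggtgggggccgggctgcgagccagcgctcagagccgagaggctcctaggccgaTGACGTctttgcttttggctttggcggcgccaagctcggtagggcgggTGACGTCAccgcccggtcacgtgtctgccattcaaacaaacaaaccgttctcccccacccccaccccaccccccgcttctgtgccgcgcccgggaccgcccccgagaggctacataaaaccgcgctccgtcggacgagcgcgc
Hspa1a, chr17:34972157-34972406, minus strand: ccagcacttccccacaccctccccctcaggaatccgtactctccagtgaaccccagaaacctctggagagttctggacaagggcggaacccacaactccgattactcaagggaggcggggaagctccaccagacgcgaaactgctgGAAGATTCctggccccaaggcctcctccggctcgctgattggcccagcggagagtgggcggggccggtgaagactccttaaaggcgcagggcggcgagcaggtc

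The Fos match starts 66 bases before the start site. Dusp1 has 3 matches, starting 191, 143 and 141 bases before it, of which the last pair overlaps as one palindrome read on both strands. The Hspa1a match starts 104 bases before it. On either strand TGACGT occurred in 6.56% of 27025 promoters of this length, in 10.8% of the 8906 promoters of genes in the matrix and in 4 of the 13 immediate early genes with a promoter entry. GAANNTTC occurred in 6.78% of all promoters, in 4.78% of those in the matrix and in 4 of the 9 chaperone genes with an entry. A match is a string of letters and not a measured site, and no binding was measured in these cells.

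Among the other genes highest over MOL2a and MOL2b were Itm2b, an inhibitor of amyloid processing, and Ubb, a polyubiquitin gene. Itm2b was at 2563 CPM in TdTom+ and 2705 CPM in GFP+ MOL2/MFOL cells, against 895 and 762 CPM. Ubb was at 2421 and 2576 CPM, against 902 and 823 CPM. Both were also high in MOL1, with 1739 and 1947 CPM of Itm2b and 2247 and 2659 CPM of Ubb. MOL2/4 had 3018 and 2619 CPM of Itm2b, a range that overlaps that of MOL2/MFOL. Phgdh, the first enzyme of serine synthesis, Cct7, a subunit of the chaperonin TRiC, and Gm26825, a predicted gene, differed by 1.49, 1.47 and 2.11.

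Of 14 structural myelin genes, 3 were higher than in MOL2a and MOL2b and none was lower, beside 10.9% and 2.95% of all genes. Cldn11, the claudin of myelin tight junctions, was at 6099 and 6023 CPM, against 4097 and 3730 CPM in MOL2a and 2514 and 2433 CPM in MOL2b. Cnp, a cyclic nucleotide phosphodiesterase of myelin, was at 5599 and 5814 CPM, against 3374 and 3462 CPM in MOL2a. The third was Opalin. Fdps and Sc5d, of the cholesterol pathway, differed by 1.24 and 0.71, and the list had 2 of 10 higher, beside the same 10.9%. Counts this small give little to set against that share.

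Fewer genes were lower. Slc1a2, a glutamate transporter of astrocytes, was at 12.0 and 14.4 CPM in MOL2/MFOL cells, against 77.9 and 46.5 CPM. The high side was MOL2b alone, at 117 and 60.7 CPM, while MOL2a had 14.4 and 10.2 CPM. Slc1a2 is also a member of the astrocyte list, whose sum was higher in MOL2b, and the part of that list in this result was not tested. Nkx2-9, a homeodomain transcription factor, differed by -1.26 and Itgav, an integrin subunit, by -1.02. Sdhaf1, Rbm28, Caprin1, Cdk5rap2, Deaf1 and Tspan9 ranged from -1.41 to -0.96, and S100b was the last of the 10.

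Against all other cells together, 245 of 3197 genes (7.66%) were higher in MOL2/MFOL and 141 (4.41%) were lower. Without the level limit the split turned to 727 higher and 2575 lower, and at 2-fold it was 27 and 34. In the GFP+ library by itself 476 and 302 passed. With TMM factors in place of totals the counts were 332 and 103, since the median over all genes then moved from 0.03 to 0.09. Ldhb, a subunit of lactate dehydrogenase, led at 218 and 331 CPM, against 71.7 and 88.3 CPM. Gapdh, an enzyme of glycolysis, was at 764 and 890 CPM, against 304 and 311 CPM. Cdkn1c, Plin3, Anxa5, Itm2b, Hspa1a, Pdlim1, Gm26825 and Pex7 followed, with log2 differences from 1.57 to 1.22. Among the lowest were OPC genes such as Ptprz1, a receptor phosphatase, and Pdgfra, the receptor for platelet-derived growth factor, with 2 UMIs each in the label. Ptprz1 differed by -4.97 (-8.60 to -3.70) and Pdgfra by -4.25 (-7.87 to -2.96). Marcks, Gpr17, C1ql1, Tnr, Cspg5, Gria2 and Tsc22d1 were lower too, and Ptgds was at -2.17.

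No label stood out as nearly the same as MOL2/MFOL. With every label thinned to 220597 summed UMIs and at least 200 CPM required, 12.0% of 833 genes passed 1.5-fold against MOL1 and 13.7% of 851 against MOL2a. The shares were 18.3% against MOL6a, 21.1% against MFOL2, 25.5% against MOL2b and 36.5% against MFOL1. The order of the first pair depended on the measure, since the correlation across genes was 0.934 with MOL2a and 0.918 with MOL1. COP/NFOL, which had too few UMIs, was not included.

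The position of MOL2/MFOL between both ends was measured on genes that differed at least 2-fold between MFOL1 and MOL2a with MOL2b in one library, and read in the other. A position of 0 is the MFOL1 level and 1 the MOL2a and MOL2b level on the log2 scale. For 312 genes chosen in TdTom+ and read in GFP+ the median position was 0.89 (quartiles 0.69 and 1.21). For 373 genes chosen in GFP+ and read in TdTom+ it was also 0.89 (quartiles 0.71 and 1.09). In these sets 88.5% and 87.1% of the genes were nearer to the MOL2 end, while 123 and 132 genes lay beyond the MOL2 end and 11 and 22 beyond the MFOL1 end. Genes high in MFOL1 had medians of 0.90 and 0.93 and genes high in MOL2 had 0.87 in both readings.

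Of 226 genes that were chosen in both libraries and read in the same libraries, 155 lay between the ends, 71 lay beyond the MOL2 end and 0 lay beyond the MFOL1 end. The 5 furthest beyond were Tuba1a, at 1.72, Sept8, a septin, at 1.55, Nav1, a neuron navigator protein, at 1.53, Gstm5, a glutathione transferase, at 1.51, and Sccpdh, at 1.43. Sept8 was at 583 CPM in MOL2/MFOL, against 97.1 CPM in MFOL1 and 310 CPM in MOL2a and MOL2b. Nav1, the only one of the 5 that was high in MFOL1, fell to 37.9 CPM from 148 CPM, with 60.9 CPM in MOL2a and MOL2b.

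Cell by cell, the label was shifted a little from MOL2a and MOL2b toward MFOL1. The measure was the share of UMIs on genes of the MFOL1 side, among the UMIs on genes of both sides, with the genes chosen in the other library and each cell thinned to 2400 UMIs. TdTom+ MOL2/MFOL cells had a median of 34.3% (quartiles 26.5 and 42.9%), against 25.6% in MOL2a, 26.2% in MOL2b and 77.6% in MFOL1. GFP+ cells had a median of 26.9% (quartiles 21.2 and 35.9%), against 20.7%, 19.4% and 74.4%. No MOL2/MFOL cell of either library reached the MFOL1 median, and the highest values were 55.3% and 49.7%. Between the medians of both ends lay 76.2% of TdTom+ and 80.3% of GFP+ MOL2/MFOL cells, and also 48.4% and 55.4% of MOL2a cells. Among MOL2/MFOL cells the share moved with the UMIs of the chaperone list, with a Spearman correlation of 0.48 over 168 TdTom+ cells and 0.36 over 61 GFP+ cells. With the UMIs of the immediate early list the correlation was 0.16 in TdTom+ and 0.26 in GFP+ cells. The share and the list UMIs come from the same thinned UMIs of a cell, and the part of either list in the shift was not tested.

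A value between the ends was not particular to cells between those types. MOL1 cells had medians of 50.3% in TdTom+ and 52.9% in GFP+, OPC 52.9% and 45.0%, and MOL4-5/6 cells 59.6% and 52.5%. A shift toward MFOL1 on this measure is thus also one toward MOL1, the label with the fewest genes past the fold. Few single cells held both sets of markers: 2 of 168 TdTom+ and 1 of 61 GFP+ MOL2/MFOL cells had at least 3 MOL2 and 3 MFOL markers after thinning. In MOL2a 5 of 157 and 3 of 65 cells did.

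**Figure D4:**
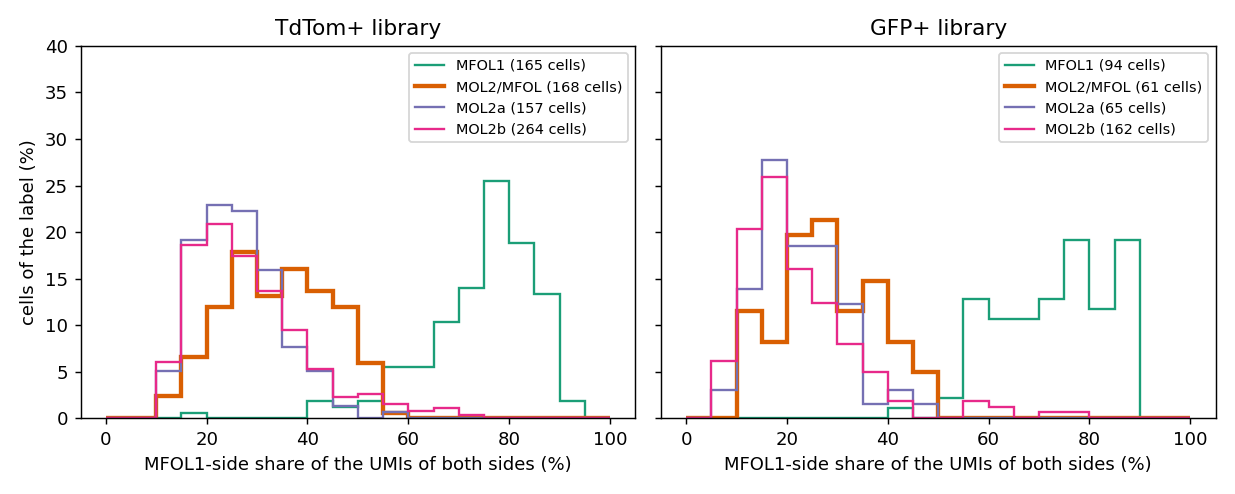
Distribution of the MFOL1-side share of UMIs over cells thinned to 2400 UMIs, in bins of 5 percentage points, for the TdTom+ library (left) and the GFP+ library (right), with the percent of each label's cells on the vertical axis. MOL2/MFOL (thick orange line, medians 34.3% and 26.9%) overlaps MOL2a and MOL2b and stays below the bulk of MFOL1 (medians 77.6% and 74.4%).

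In the space of the first 30 principal components, the 20 nearest neighbours of MOL2/MFOL cells were of the same label in 66.0% of cases. Next came MOL2a (11.9%), MOL1 (9.31%), MOL6a (6.80%) and MOL2b (2.81%). Their shares of all cells were 8.06%, 5.64%, 15.8% and 15.2%, so MOL6a and MOL2b were less frequent as neighbours than among all cells. MFOL1 cells were 2 of 4620 neighbours, or 0.0433%, though they were 9.60% of all cells. The label came from clusters of these cells, so the share of like neighbours is a description. The order differed by library. MOL2a shares were 13.3% around TdTom+ and 8.11% around GFP+ cells, MOL6a shares were 5.41% and 10.7%, and MFOL1 was absent around GFP+ cells.

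Inside MOL2/MFOL, TdTom+ and GFP+ cells were alike for most genes. Over 1607 genes whose mean of both libraries reached 100 CPM, 24 (1.49%) were higher and 31 (1.93%) lower in TdTom+ cells, and 99.8% differed by less than 2-fold. Klk6 had the largest difference in favour of GFP+, at 273 against 645 CPM, a log2 ratio of -1.24 (-1.54 to -0.94). In all other cells the ratio was -1.66 (-1.81 to -1.53), at 105 and 333 CPM, so it pointed the same way outside the label. Mgst3 was also lower in TdTom+, at 104 against 198 CPM, and it was lower in the other cells too (-0.65). Enoph1, Cct4 and Ewsr1 were lower by 1.01, 0.91 and 0.89, with ratios of -0.07, -0.06 and 0.13 in the other cells.

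The genes furthest higher in TdTom+ were Dnah14, Clmn, Hspa1a, Prkaca and Pabpc1. Hspa1a was at 306 against 155 CPM, a log2 ratio of 0.98 (0.51 to 1.49), and had 0.30 in the other cells. Clmn, which encodes calmin, was at 185 against 90.1 CPM with 0.11 in the other cells. Fos did not differ beyond counting error, at -0.16 (-0.47 to 0.15), and neither did Junb, at -0.04. Egr1 was higher in TdTom+, at 168 against 97.3 CPM, a log2 ratio of 0.78 (0.18 to 1.44), with 0.04 in the other cells. Sox10, the lineage factor, was at 853 against 580 CPM, and it was higher in TdTom+ in the other cells as well, at 1047 against 650 CPM. Whether a ratio inside the label differs from that outside was not tested.

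**Figure D5:**
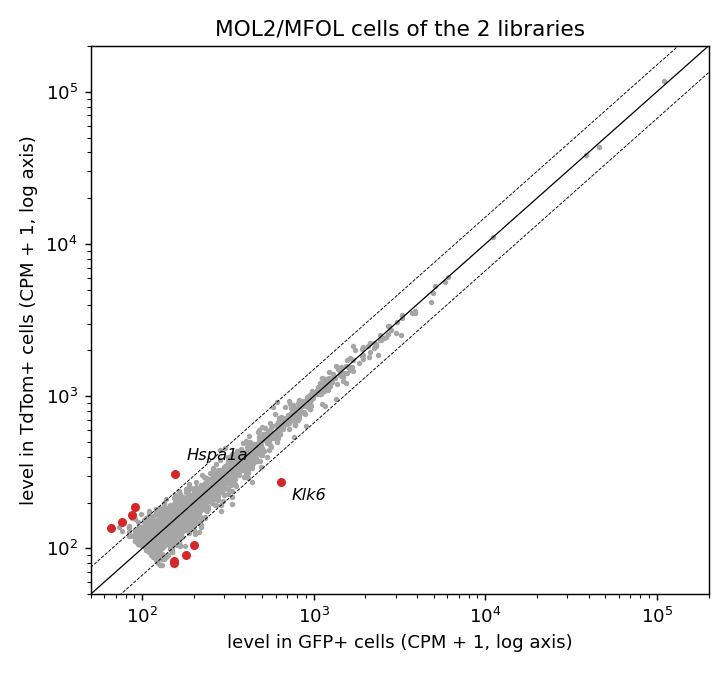
Levels of 1607 genes in TdTom+ (vertical axis) and GFP+ (horizontal axis) MOL2/MFOL cells, in CPM + 1 on log axes, with the line of equal level and dashed lines at 1.5-fold. Most points lie between the dashed lines and the 5 highest and 5 lowest ratios (red) lie outside, Klk6 at 273 against 645 CPM among them.

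A few genes stood out by their spread among the MOL2/MFOL cells. The ratio of variance to mean of thinned UMIs had a median of 1.01 over 2931 genes, with 1.03 in MFOL1, 1.01 in MOL2a and 1.02 in MOL2b, and 20 genes exceeded 2. Most genes average under 1 UMI per thinned cell, where the ratio lies near 1 whatever the spread, so the median does not show that the cells were alike. Malat1, a nuclear RNA, led at 13.5, against 24.6 in MFOL1, and Ptgds had 10.4. Klk6 had a ratio of 4.72, with 80.4% of TdTom+ and 70.5% of GFP+ cells at 0 and up to 9 and 14 UMIs in a cell. Stambp, a deubiquitinase, reached 4.42 through TdTom+ cells alone, where the ratio was 5.32 against 0.867 in GFP+ cells, and 1 cell held 39.8% of its UMIs. Fos (3.83), Jun (3.77) and Fth1 (3.52), a ferritin subunit, were also among the 8 highest.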

How the data were processed

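The authors sorted the cells, made droplet libraries and aligned reads with STAR, whose version no source used here gives. The submitters' processing notes name Cell Ranger 2.1.1 and mm10. The authors filtered cells on genes and mitochondrial share, integrated the libraries in Seurat, clustered the cells by expression and related the clusters to known types by label transfer. The deposited matrix holds a signal, each UMI count divided by the total of its cell, for 11733 genes. Dividing by the smallest value above 0 of each cell gave whole numbers for 100% of values within 0.01, and these recovered UMIs were used. The cell table the authors deposited gives total counts, labels and library for each of 2853 cells, and 35 of its columns were not used. The design had assumed counts, and the recovered UMIs took their place.

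UMIs were summed per label and library. Python 3.11.15, scanpy 1.11.5 and edgeR 4.0.16 (TMM factors only) were used, and the scripts were tested on simulated data. Intervals were exact Poisson or Clopper-Pearson. No test was run. Cells under 2400 UMIs were left out of thinned values, 2 of 231 in the label. Scrublet marked 13 of 2853 cells (0.456%), 1 of them MOL2/MFOL. Whether the caller worked at so low a share was not tested, and doublets were not removed.

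The members, gene lists and comparisons were chosen with earlier results of these data known. Named genes were the 10 highest and 10 lowest against MFOL1, against MOL2a with MOL2b and against all other cells, among genes with at least 50 CPM that went one way in both libraries. Further named genes were the 5 highest and 5 lowest between libraries, the 8 most variable (1 is not reported here), the 5 furthest beyond each end of the position scale, list members and Klk6. Comparing labels at matched summed UMIs was added after the data were seen. Promoter sequences were those of RefSeq. The spinal cord samples of the series were not analysed here.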

Additional observations from a re-analysis of the deposited data

How the results depend on the processing

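No paired analysis was possible because each origin gave 1 library. All 714 values of named genes under the alternatives kept their direction, and 61 of them lay outside the counting interval. Of 154 other values, 107 stayed within the interval or within 1.5 times of the reported value and the rest are given here. In the following, counts are of genes higher and lower. With no level limit they were 2197 and 2359 against MFOL1, 1208 and 1585 against MOL2a and MOL2b, 727 and 2575 against all other cells, and 2532 and 1688 between libraries. At 200 CPM they were 186 and 94, 88 and 8, and 74 and 20 for the first 3 comparisons. At 2-fold they were 262 and 138, 70 and 7, 27 and 34, and 2 and 2 between libraries. In the GFP+ library alone they were 594 and 324 against MOL2a and MOL2b and 476 and 302 against all other cells, with fewer UMIs behind each gene. With a pseudocount of 10 CPM 51 genes were lower than in MOL2a and MOL2b, against MOL2a alone 62 and against MOL2b alone 164. At 2-fold, 2 chaperone, 1 structural myelin and 0 cytoskeletal genes were higher than in MOL2a and MOL2b. In the GFP+ library alone 1 MFOL marker exceeded all other cells. Over mature labels the TdTom+ share was 10.5%. The percent of genes nearer MOL2a and MOL2b, read in GFP+ and TdTom+, was 79.7 and 77.4 with a 1.5-fold choice, 84.1 and 81.5 with MOL2a as the mature end, and 95.1 in both when chosen and read in both libraries together. It was 94.8 in GFP+ at 200 CPM. Neighbours of the same label were 68.0% among 10 neighbours and 63.5% with 15 components, where MOL2a gave 9.63% and MFOL1 0%. Klk6 was found in 8.23% of cells at 500 UMIs and in 13.1% when 2 UMIs were required. Except where the level limit, the fold or the number of UMIs was itself changed, the cause was not tested. Depth limits genes near 50 CPM, where the GFP+ cells of the label hold few UMIs, and pooled tissue of 2 mice leaves no spread between animals.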
